A study of Mus musculus with 2 samples.

Results

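The ligands and receptors of the vascular endothelial growth factor (VEGF) family were described in single cells of mouse long bone. The set was named gene by gene and comprised 8 genes of the 28380 in the count tables, namely the ligands Vegfa, Vegfb, Vegfc, Vegfd and Pgf and the receptors Flt1, Kdr and Flt4. The rule that names them uses no measured value, although earlier results of these data were known when the set was chosen. All 8 genes had unique molecular identifiers (UMIs, the counted RNA molecules) in both libraries. Cells came from femur and tibia of C57BL/6 mice of both sexes at postnatal day 30, after the epiphysis had been detached and blood lineage cells had been depleted with magnetic beads. The Control library (1 library, genotype Dach1OE +/f) came from mice with a Dach1 transgene and no Cre. The Dach1OE library (1 library, genotype Apj CreERT2 - Dach1OE +/f) came from mice in which a tamoxifen-inducible Cre under Aplnr (Apj), a gene of capillary endothelial cells (ECs), switches the transgene on. Mice of both groups carried the transgene and received tamoxifen. Per the methods each library pooled a small number of animals, so that mouse, cell preparation and genotype cannot be told apart.

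VEGF proteins are secreted dimers that bind receptor tyrosine kinases on ECs. Vegfa binds Flt1 (VEGFR1) and Kdr (VEGFR2). Kdr carries most of the signal for EC growth and permeability, whereas Flt1 binds Vegfa tightly with weak kinase activity and can act as a decoy. Vegfb and Pgf (placental growth factor) bind Flt1 only. Vegfc and Vegfd are ligands of Flt4 (VEGFR3), which is best known from lymphatic vessels and is also present on the sinusoidal ECs of bone marrow. In growing long bones, hypertrophic chondrocytes are a known source of Vegfa for vessels that enter the growth plate.

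On the mouse build GRCm38, GENCODE places the ligand genes at chr17:46016993-46032369 (Vegfa, minus strand), chr19:6982473-6987651 (Vegfb, minus), chr8:54077606-54187096 (Vegfc, plus), chrX:164373378-164402650 (Vegfd, plus) and chr12:85166635-85177790 (Pgf, minus). The receptor genes lie at chr5:147561604-147726011 (Flt1, minus), chr5:75932827-75978458 (Kdr, minus) and chr11:49609263-49652739 (Flt4, plus). All 8 are annotated as protein coding, and none overlaps another annotated gene in the GENCODE release used here. Intronic reads were counted by the deposited pipeline, so a count covers the exons and introns of a gene together.

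Flt1 and Kdr were both largely restricted to ECs (at most 7.18% of the EC level for Kdr and 9.31% for Flt1 in every other class), and the sequence before their RefSeq start sites is shown as that of the 2 receptors of Vegfa. The sequences come from the RefSeq promoter table for GRCm38.p6, are written 5′ to 3′ on the minus strand of chromosome 5, and end at the base before the annotated gene. Capitals mark GGAA or its reverse complement TTCC, the core bound by ETS-family transcription factors, many of which are active in ECs.
Kdr, chr5:75978459-75978705: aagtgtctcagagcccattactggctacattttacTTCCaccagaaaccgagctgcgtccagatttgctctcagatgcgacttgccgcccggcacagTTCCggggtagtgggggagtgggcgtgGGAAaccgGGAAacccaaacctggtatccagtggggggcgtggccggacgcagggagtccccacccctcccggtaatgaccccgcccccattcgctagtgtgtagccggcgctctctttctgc
Flt1, chr5:147726012-147726261: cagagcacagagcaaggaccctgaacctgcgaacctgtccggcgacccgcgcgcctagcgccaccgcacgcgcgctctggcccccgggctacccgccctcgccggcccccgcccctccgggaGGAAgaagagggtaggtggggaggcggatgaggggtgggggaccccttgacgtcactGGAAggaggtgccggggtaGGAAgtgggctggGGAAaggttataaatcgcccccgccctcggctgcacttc
Each window held 4 such cores, searched on both strands. A count of at least 4 was found in 33.4% of 32851 promoter windows of 250 bases, 93.4% of windows held at least 1 core and the median was 3, so the number of cores does not set these genes apart. Flt4, which was as restricted to ECs (at most 7.74% of the EC level in every other class), held 2 cores in its window, a number reached in 76.8% of windows. The longer form CCGGAA, which overlaps the core, occurred once in the Kdr window (as its reverse complement) and not in the Flt1 window, against 12.0% of all windows. These are matches of letters and not evidence of binding.

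Filters on detected genes and mitochondrial UMIs kept 26466 of 28720 Control cells and 29317 of 32028 Dach1OE cells, with medians of 3793.5 and 4055 UMIs per cell. Cell groups were set by marker gates that used none of the 8 genes. A name such as sinusoidal thus stands for cells that passed a marker list and not for an annotation by the study. Gate markers can themselves differ between the libraries. Cxcr4 and Apln, markers of the tip-like gate, were more than 1.5-fold higher in Dach1OE ECs, and Esm1, another of its markers, was lower. For Dach1OE ECs the study reports reduced expression of several sinusoidal markers. How far group shares and ratios within gates follow such marker differences was not tested. The gates left 8.03% of Control and 8.43% of Dach1OE cells unassigned, 7.59% and 7.70% of cells lay close to a gate limit, and 1049 cell indices occurred in both libraries. ECs numbered 8322 in Control and 8373 in Dach1OE, chondrocytes 4139 and 5732, stroma (bone mesenchymal stromal cells and their osteoblast lineage) 5208 and 4239, mural cells 1336 and 2677, fibroblasts 865 and 734, and haematopoietic cells 4470 and 5090. The overexpressed gene, Dach1, went from 4.83 to 203 CPM in ECs, and 1.53% of Control against 39.0% of Dach1OE ECs held a Dach1 UMI. CPM here is the UMIs of a gene summed over the cells of a group and scaled by all UMIs of that group. Intervals in parentheses are exact 95% intervals that cover counting error only. With 1 library per group there is no replicate and no test of the genotype, and an interval that leaves out 0 on the log2 scale says only that these libraries differ.

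As gated, the make-up of the EC and stromal classes differed between the libraries, which matters for every class-wide level that follows. Sinusoidal ECs (the marrow capillaries) were 62.8% of Control and 28.2% of Dach1OE ECs, and arterial ECs 3.64% and 12.0%. A group defined by Scgb3a1 and Clca3a1 was 0.577% of Control and 19.2% of Dach1OE ECs. Type R ECs, gated on genes such as C1qtnf9 and Fmo2, were 3.29% of Control and 2.51% of Dach1OE ECs. By staining, the study reports more type R capillaries in Dach1OE femurs. From its own clusters of the sequenced cells it also reports strong enrichment of Dach1-positive ECs among Dach1OE arterial and type R ECs. The type R gate used here need not match those cells. Diaphyseal stroma (Lepr and Cxcl12 cells of the marrow) was 39.9% of Control and 18.0% of Dach1OE stroma. The libraries also divided their gated cells differently over clusters built without the 8 genes. Of the sinusoidal ECs, 81.9% of Control cells lay in cluster 0, whereas 52.6% of Dach1OE cells lay in cluster 25 and 29.9% in cluster 0. Arterial ECs were alike in this respect, with 93.1% of Control and 95.6% of Dach1OE cells in cluster 22.

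**Figure D1:**
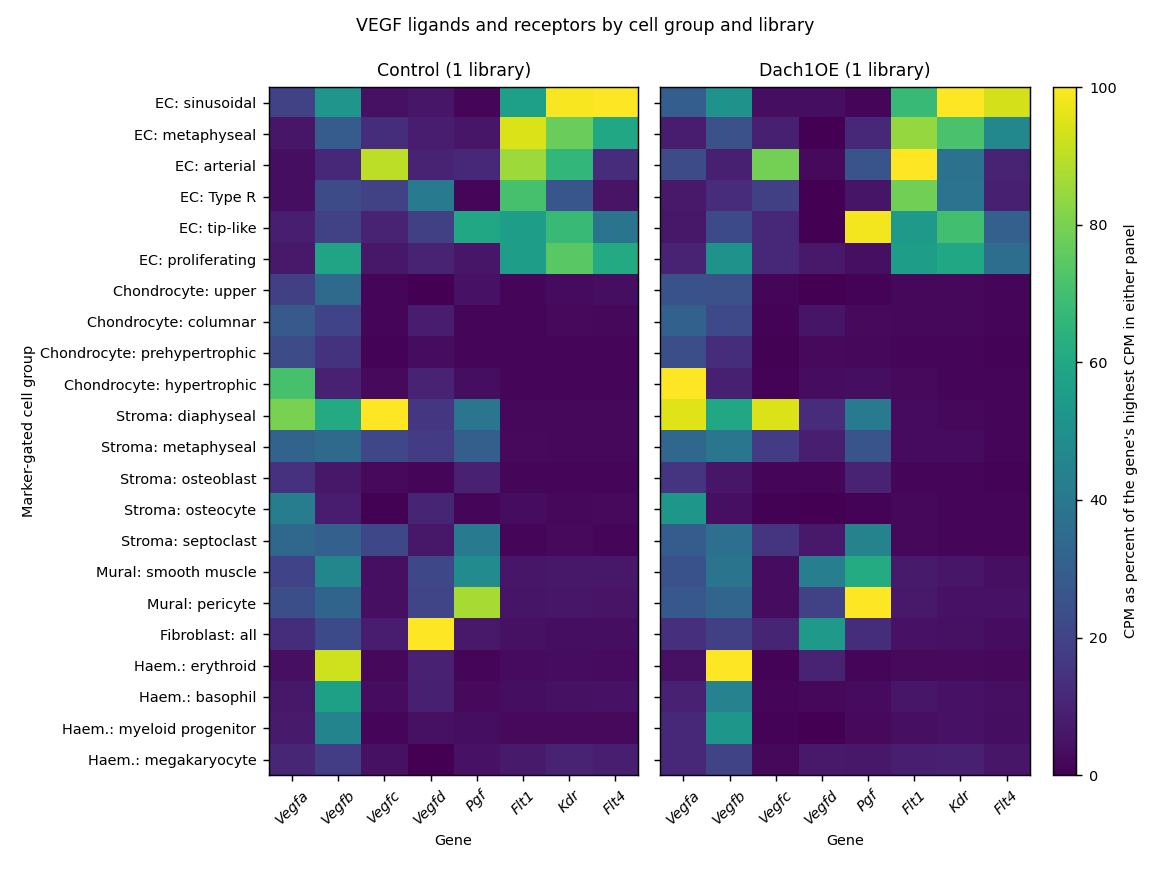
Level of each gene (columns) in marker-gated cell groups with at least 100 cells in each library (rows), drawn as the CPM in percent of the highest CPM of that gene in either panel. Flt1 and Kdr are higher in the EC rows than elsewhere. Flt4 is high in most EC rows but low in arterial ECs (111 and 86.9 CPM) and type R ECs (44.2 and 74.1 CPM). Vegfa is highest in hypertrophic chondrocytes and diaphyseal stroma, Vegfc in diaphyseal stroma and arterial ECs, and Pgf in pericytes and tip-like ECs.

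Vegfa was found in all classes, with its highest levels in the growth plate and the marrow stroma. In hypertrophic chondrocytes (Col10a1 and Mmp13 cells) it stood at 213 CPM (196 to 230) in Control and 301 CPM (286 to 315) in Dach1OE. Prehypertrophic chondrocytes had 68.8 and 71.7 CPM, columnar chondrocytes 83.9 and 92.8 CPM, and upper chondrocytes 56.7 and 75.6 CPM. The hypertrophic level was thus 3.75-fold the upper level in Control and 3.97-fold in Dach1OE, log2 ratios of 1.91 (1.44 to 2.41) and 1.99 (1.67 to 2.33). Against prehypertrophic cells, the stage that precedes it, it was 3.09-fold and 4.19-fold. Hypertrophic cells lay above the other 3 stages in both libraries, with intervals that did not meet. Columnar and upper cells overlapped in Dach1OE, where their log2 ratio was 0.30 (-0.03 to 0.64). The stage gates did not follow the clusters closely. Of the prehypertrophic cells, 48.9% in Control and 34.3% in Dach1OE lay in cluster 2, and 33.3% and 43.8% in cluster 13. Cluster 13 also held 44.1% and 49.9% of the columnar cells, so these stages were not well separated. Hypertrophic cells lay to 66.9% and 74.1% in cluster 6.

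In stroma, Vegfa was highest in diaphyseal cells, at 240 CPM (228 to 253) in Control and 285 CPM (264 to 308) in Dach1OE. Osteocytes, the cells embedded in bone matrix, had 127 (105 to 153) and 159 CPM (137 to 184). Septoclasts (Mmp9 and Ctsk cells at the growth plate border) had 102 and 87.0 CPM, metaphyseal stroma 96.0 and 101 CPM, and osteoblasts 42.5 and 46.3 CPM. The diaphyseal level was 5.65-fold the osteoblast level in Control and 6.17-fold in Dach1OE. Osteocytes, septoclasts and metaphyseal stroma had overlapping intervals in Control. In Dach1OE the osteocyte interval lay above those of the other two. Of all Vegfa UMIs in kept cells, chondrocytes held 40.8% in Control and 51.0% in Dach1OE, stroma 28.0% and 16.7%, and ECs 14.1% and 14.3%.

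Among ECs, Vegfa was highest in sinusoidal cells, with 58.5 CPM (55.1 to 62.1) in Control and 89.8 CPM (83.4 to 96.6) in Dach1OE, and in Scgb3a1-positive cells, with 67.4 (29.1 to 133) and 88.4 CPM (80.3 to 97.0). These groups overlapped in each library. Metaphyseal ECs had 18.0 and 23.5 CPM and tip-like ECs 25.6 and 19.2 CPM. Type R ECs (C1qtnf9 and Fmo2 cells, named after the remodelling capillaries of the study) had 11.4 and 20.2 CPM. The arterial level was 11.1 CPM (5.54 to 19.8) in Control, from 11 UMIs, and 68.4 CPM (60.1 to 77.5) in Dach1OE, from 244 UMIs. For scale, erythroid cells had 12.3 and 14.1 CPM, basophils 19.1 and 27.4 CPM and megakaryocytes 31.7 and 34.1 CPM. Whether these cells express Vegfa was not tested, so their levels are no measure of background. The Control arterial interval included the erythroid values and lay below the megakaryocyte values. The Dach1OE arterial interval lay above the values of all these groups.

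Vegfc, the main ligand of Flt4, had a narrow distribution. Diaphyseal stroma stood at 264 CPM (251 to 277) in Control and 250 CPM (230 to 272) in Dach1OE, and arterial ECs at 238 CPM (209 to 270) and 209 CPM (194 to 224). Metaphyseal stroma had 56.7 and 45.7 CPM, septoclasts 57.2 and 41.1 CPM, and type R ECs 51.3 and 50.5 CPM. All other named EC groups lay at 34.3 CPM or less in each library, chondrocyte stages at 6.71 CPM or less, and osteocytes at 1.08 and 1.71 CPM. Arterial ECs exceeded sinusoidal ECs 19.8-fold in Control and 20.9-fold in Dach1OE, log2 ratios of 4.30 (4.04 to 4.57) and 4.38 (4.05 to 4.73). Diaphyseal stroma exceeded osteoblasts 38.0-fold and 68.1-fold. Osteoblasts had 6.96 and 3.68 CPM, near the 5.34 and 2.73 CPM of erythroid cells. These folds are thus set against a low level, and the part of background in it was not tested. Diaphyseal stroma and arterial ECs overlapped in Control, and in Dach1OE the stroma was higher.

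Pgf was carried by mural cells, tip-like ECs and some stroma. Pericytes had 76.8 CPM (62.9 to 92.8) in Control and 88.4 CPM (78.2 to 99.7) in Dach1OE, and smooth muscle cells 42.5 (34.3 to 52.0) and 54.5 CPM (47.2 to 62.7). Tip-like ECs, cells with the sprouting genes Cxcr4, Apln and Angpt2, had 53.1 (35.0 to 77.2) and 87.0 CPM (68.7 to 109). Against metaphyseal ECs the log2 ratios were 3.32 (2.48 to 4.17) and 3.09 (2.59 to 3.59), and the level was 40.2-fold and 77.3-fold the sinusoidal level, which rested on 25 and 9 UMIs. That sinusoidal level (1.32 and 1.13 CPM) was like that of erythroid cells (1.40 and 1.15 CPM). These folds are thus set against a low level, and the part of background in it was not tested. Diaphyseal stroma (34.7 and 36.8 CPM) and septoclasts (36.6 and 39.7 CPM) overlapped with each other in both libraries. Stroma held 43.3% of the Pgf UMIs of Control cells and 22.7% of those of Dach1OE cells, while mural cells held 19.2% and 31.9%.

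Vegfb, the Flt1 ligand linked to fatty acid handling, was highest in erythroid cells among groups with at least 100 cells in each library, at 74.2 CPM (69.9 to 78.7) in Control and 79.9 CPM (75.8 to 84.1) in Dach1OE. Diaphyseal stroma had 48.9 and 47.9 CPM, proliferating ECs 46.8 and 40.7 CPM, basophils 45.3 and 35.6 CPM, sinusoidal ECs 41.6 and 40.8 CPM and myeloid progenitors 36.0 and 42.3 CPM. The intervals of these groups all lay below that of erythroid cells in each library. Arterial ECs had 9.07 and 7.01 CPM, from 9 and 25 UMIs. Haematopoietic cells that had escaped depletion held 38.2% of the Vegfb UMIs in Control and 45.3% in Dach1OE.

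Vegfd was scarce, with 152 UMIs in Control and 125 in Dach1OE over all kept cells. Fibroblasts, gated on tendon and connective tissue genes such as Clec3b and Tnmd, had the highest class level, at 10.3 CPM (7.39 to 14.1) from 40 UMIs and 5.56 CPM (3.24 to 8.89) from 17 UMIs. No named EC subtype held more than 12 Vegfd UMIs in a library. Mural cells had 2.16 CPM (0.934 to 4.26) from 8 UMIs and 3.20 CPM (2.01 to 4.85) from 22 UMIs. In Dach1OE the mural interval lay above those of ECs (0.320 CPM, 0.146 to 0.608), chondrocytes (0.425 CPM, 0.275 to 0.627) and stroma (0.369 CPM, from 9 UMIs). Among EC subtypes with at least 100 cells the Vegfd intervals overlapped within each library.

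**Figure D2:**
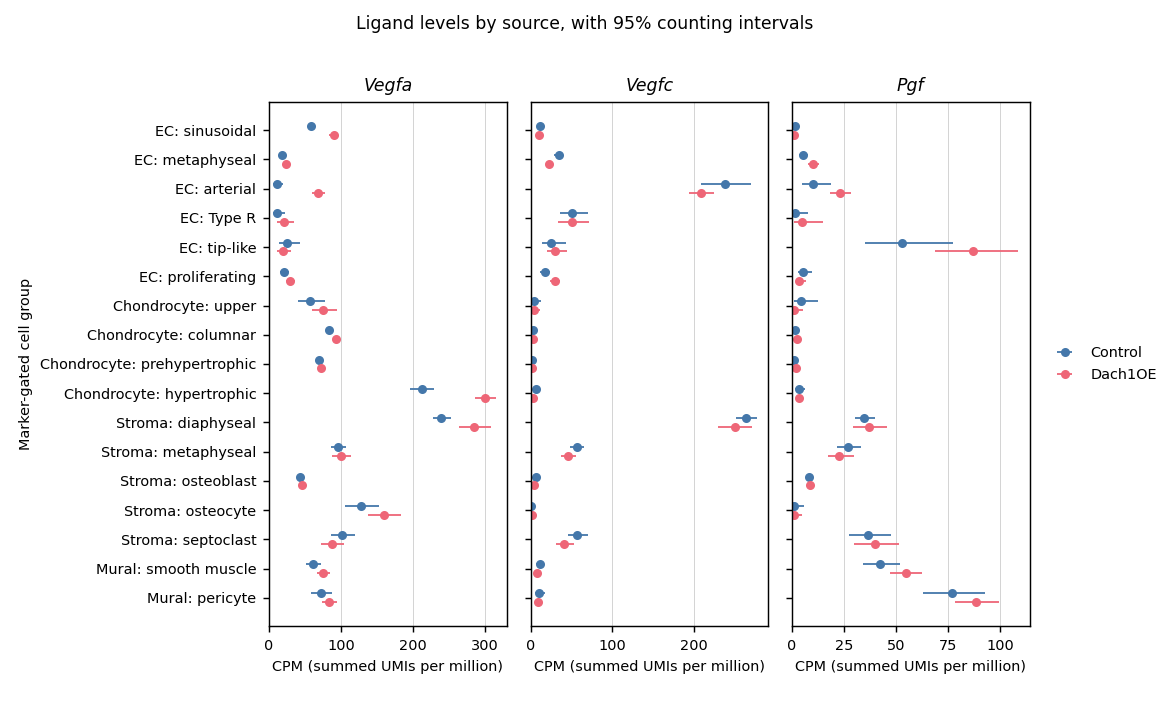
CPM of Vegfa, Vegfc and Pgf (x axes) in EC, chondrocyte, stromal and mural groups (y axis), with points for the Control and Dach1OE libraries and bars for exact 95% counting intervals. Hypertrophic chondrocytes (213 and 301 CPM) and diaphyseal stroma (240 and 285 CPM) lead for Vegfa, and the arterial Vegfa point moves from 11.1 to 68.4 CPM.

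**Figure D3:**
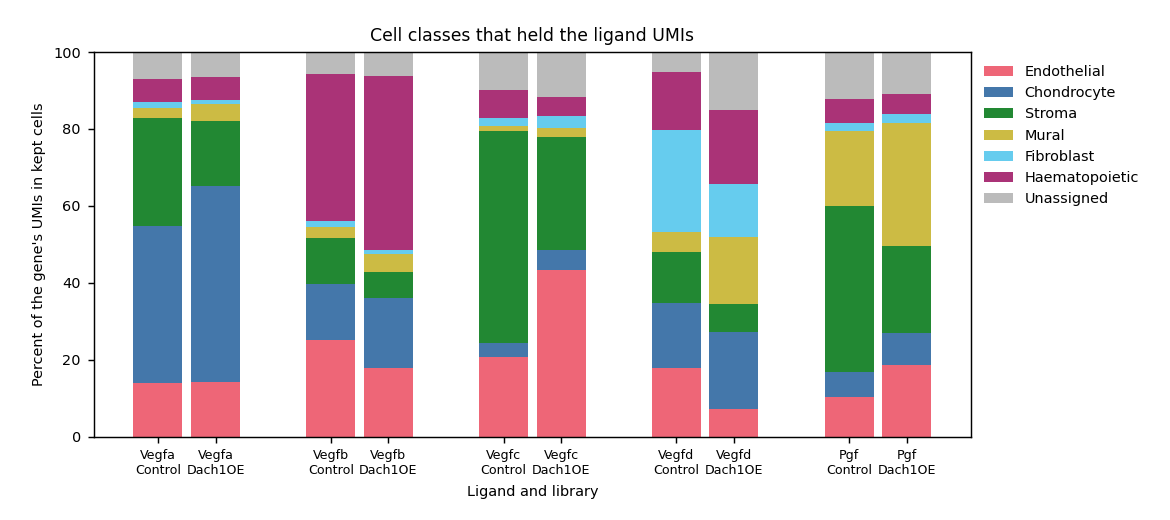
Percent of the UMIs of each ligand (y axis) held by each cell class in the Control and the Dach1OE library (x axis), with unassigned cells in grey. The stromal part of Vegfc falls from 55.2% to 29.4% and the EC part goes from 20.6% to 43.2%.

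The receptors were EC genes. ECs held 82.8% of the Kdr UMIs of Control cells and 79.6% of those of Dach1OE cells, 81.5% and 78.3% of the Flt1 UMIs, and 81.9% and 77.8% of the Flt4 UMIs. Kdr stood at 1991 CPM in Control and 1701 CPM in Dach1OE ECs, Flt1 at 847 and 978 CPM, and Flt4 at 715 and 493 CPM. In cells thinned to 1000 UMIs, 81.6% of Control and 75.3% of Dach1OE ECs had a Kdr UMI, 55.1% and 58.6% a Flt1 UMI, and 46.8% and 35.8% a Flt4 UMI, with 166 and 225 shallower cells left out. Without thinning these shares were 94.9% and 91.7%, 83.8% and 84.6%, and 75.6% and 62.3%, at median depths of 2854 and 2833 UMIs. In chondrocytes, which should lack these receptors, the thinned Kdr shares were 4.11% and 3.27% at original median depths of 10690 and 10078 UMIs.

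Outside ECs the receptors were low and kept the order they had in ECs, with Kdr above Flt1 and Flt1 above Flt4 in every class. Kdr levels in chondrocytes, stroma, mural cells, fibroblasts and haematopoietic cells were between 2.07% and 7.18% of the EC level. There were 0.425 Flt1 UMIs per Kdr UMI in Control ECs and 0.575 in Dach1OE ECs. The same ratio was 0.470 and 0.658 in chondrocytes, 0.558 and 0.751 in stroma and 0.466 and 0.595 in haematopoietic cells, so that in each of these classes it was higher in the Dach1OE library, as in ECs. Flt4 UMIs per Kdr UMI were 0.359 and 0.290 in ECs and 0.352 and 0.321 in chondrocytes. Mural cells had 0.575 and 0.746 Flt1 UMIs per Kdr UMI. Fibroblasts, with 0.662 and 0.642, were the class in which this ratio was not higher in Dach1OE. Among named subtypes outside ECs it was lower in metaphyseal stroma (0.647 and 0.592), osteocytes (0.809 and 0.653) and myeloid progenitors (0.576 and 0.480). Free RNA of lysed cells can give UMIs in the well of any cell, and its part in these UMIs was not tested. The receptor levels of non-endothelial classes were not read as expression there. Megakaryocytes had the highest Kdr level outside ECs, at 11.2% and 11.4% of the EC level, with 0.421 and 0.554 Flt1 UMIs per Kdr UMI.

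Among EC subtypes with at least 100 cells in each library, Flt4 ran from high in sinusoidal to low in type R and arterial cells. Lymphatic ECs, a small group and its best known site, had 995 CPM (790 to 1237) in the 28 Control cells and 657 CPM (421 to 978) in the 15 Dach1OE cells. Sinusoidal ECs had 862 CPM (849 to 875) and 806 CPM (787 to 826), and Scgb3a1-positive ECs 818 (663 to 997) and 619 CPM (597 to 641). Metaphyseal ECs followed at 515 and 401 CPM, proliferating ECs at 526 and 310 CPM and tip-like ECs at 332 and 263 CPM. Arterial ECs had 111 CPM (91.1 to 134) and 86.9 CPM (77.5 to 97.1), and type R ECs 44.2 CPM (30.0 to 62.7) and 74.1 CPM (53.9 to 99.5). The sinusoidal level was 7.77-fold the arterial level in Control and 9.28-fold in Dach1OE, log2 ratios of 2.96 (2.69 to 3.24) and 3.21 (3.05 to 3.38), and 19.5-fold and 10.9-fold the type R level. Type R levels lay near those of megakaryocytes (71.2 and 50.7 CPM) and smooth muscle cells (57.0 and 34.2 CPM). Those were not read as expression. Erythroid cells had 26.5 and 17.0 CPM, below the type R interval of each library. The folds over type R are thus set against a low level, and the part of background in it was not tested. In Dach1OE the arterial interval met that of type R ECs, so this limit holds for the Dach1OE fold over arterial ECs too. Sinusoidal ECs did not differ from lymphatic ECs beyond counting error in either library. Arterial and type R ECs had separate intervals in Control and overlapping ones in Dach1OE.

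Kdr was high in most capillary ECs and lower in the type R and Dach1OE arterial groups. Sinusoidal ECs had 2211 and 2232 CPM in Control and Dach1OE, Scgb3a1-positive ECs 1939 and 1998 CPM, metaphyseal ECs 1720 and 1588 CPM, proliferating ECs 1659 and 1336 CPM and tip-like ECs 1509 and 1555 CPM. Arterial ECs had 1475 CPM (1400 to 1553) in Control and 845 CPM (815 to 875) in Dach1OE. Type R ECs had 598 CPM (543 to 658) and 854 CPM (782 to 932). Type R was the lowest EC group in Control, and in Dach1OE type R and arterial ECs overlapped.

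Flt1 followed another order. Metaphyseal ECs had the highest Control level, 1234 CPM (1203 to 1266), and arterial ECs the highest Dach1OE level, 1302 CPM (1265 to 1340). The remaining values of these groups were 1109 CPM (arterial, Control) and 1095 CPM (metaphyseal, Dach1OE). Scgb3a1-positive ECs had 1045 and 931 CPM, type R ECs 923 and 1026 CPM, sinusoidal ECs 736 and 879 CPM, and tip-like and proliferating ECs 727 and 728 CPM in Control and 700.4 and 727 CPM in Dach1OE. Flt1 UMIs per Kdr UMI were lowest in sinusoidal ECs among these groups (0.333 and 0.394), intermediate in metaphyseal ECs (0.717 and 0.689), and 1.54 in type R ECs of Control and 1.20 in those of Dach1OE. In arterial ECs this ratio was 0.752 in Control and 1.54 in Dach1OE. Lymphatic ECs had 3 and 1 Flt1 UMIs against 81 and 30 Kdr UMIs.

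**Figure D4:**
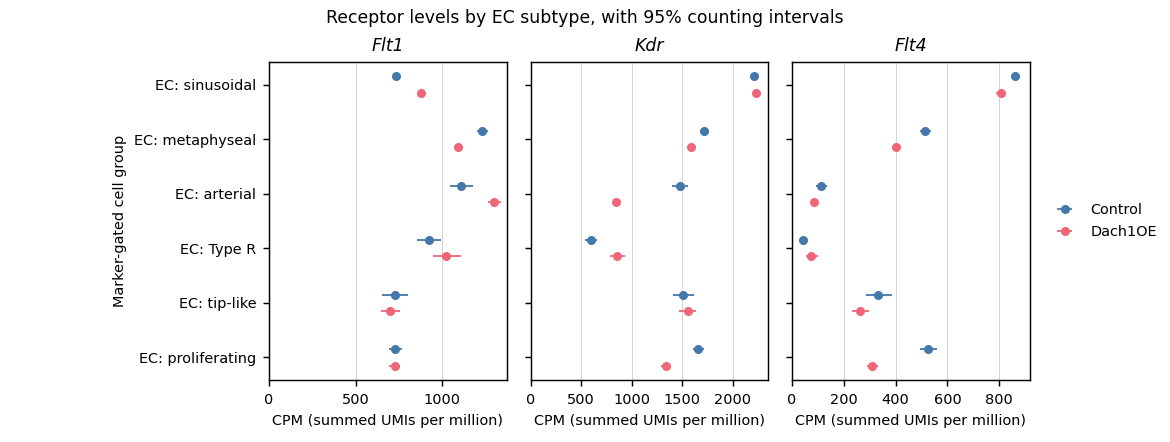
CPM of Flt1, Kdr and Flt4 (x axes) in EC subtypes with at least 100 cells in each library (y axis), with exact 95% counting intervals as bars. Flt4 runs from 862 CPM in sinusoidal ECs to 44.2 CPM in type R ECs of Control, and the arterial Kdr points lie apart at 1475 and 845 CPM.

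The comparison of the libraries asked how the family differed when Dach1 was switched on in capillary ECs. A gene was counted as different where its CPM ratio was at least 1.5-fold in either direction and the libraries held at least 50 UMIs of it together. In ECs as a class, 2 of the 7 genes with enough UMIs passed this limit, both higher in Dach1OE, against 14.6% of all 13485 genes. These were Vegfc, at 25.6 and 41.6 CPM, and Pgf, at 3.82 and 10.1 CPM, with log2 ratios of 0.70 (0.57 to 0.84) and 1.40 (1.07 to 1.73). In Xist cells alone Vegfc no longer passed the limit (0.49), while it was 0.96 in Y cells, and Pgf ranged from 0.79 with equal weights of subtypes and 0.89 in Xist cells to 2.15 in Y cells. Flt4 came near it in the other direction, with a log2 ratio of -0.54 (-0.57 to -0.51). Vegfa (0.42), Flt1 (0.21), Kdr (-0.23) and Vegfb (-0.34) stayed within it. The median log2 ratio was 0.21 over the 7 genes and 0.03 over all genes.

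The class-wide Vegfc ratio of ECs was not met in sinusoidal, metaphyseal or arterial ECs, and in proliferating ECs it was met in the gate as a whole but not among the gated cells of cluster 11. Proliferating ECs had 17.4 and 29.6 CPM of Vegfc, from 35 and 83 UMIs, with a log2 ratio of 0.77 (0.18 to 1.38). By sex the ratio was 0.59 (-0.47 to 1.74) in Xist cells and 0.84 (-0.10 to 1.87) in Y cells. Cluster 11 held 61.7% of Control and 67.2% of Dach1OE proliferating cells, and in these Vegfc was 15.3 and 15.4 CPM from 19 and 28 UMIs (0.01, -0.88 to 0.94). The 23 Control and 34 Dach1OE proliferating cells of cluster 22, where arterial ECs lay, had 8 and 48 Vegfc UMIs. Their levels were 62.6 and 236 CPM (1.92, 0.825 to 3.209). Sinusoidal ECs had 12.0 CPM of Vegfc in the Control library and a log2 ratio of -0.27 (-0.65 to 0.11). Metaphyseal ECs had 34.3 and 23.2 CPM (-0.57, -0.90 to -0.23) and arterial ECs 238 and 209 CPM (-0.19, -0.40 to 0.03). In type R ECs, with 36 and 30 UMIs, the ratio was -0.02 (-0.77 to 0.72), and in Scgb3a1-positive ECs, with 3 and 48 UMIs, it was -1.39 (-3.03 to 0.93). With every subtype given equal weight, the ratio over ECs was -0.16 on the log2 scale in place of 0.70. Arterial ECs, the EC group with the highest Vegfc level, were 3.64% of Control and 12.0% of Dach1OE ECs, and they held 6.60% and 27.5% of all Vegfc UMIs. For Flt4, the log2 ratio was -0.10 (-0.14 to -0.06) within sinusoidal ECs, -0.36 (-0.44 to -0.28) within metaphyseal ECs and -0.33 with equal weights. Proliferating ECs (-0.76, -0.89 to -0.63) and type R ECs (0.75, 0.05 to 1.46) had Flt4 ratios of opposite sign. The type R value rested on 31 and 44 UMIs, and by sex it was 1.06 (-0.10 to 2.29) in Xist cells and -0.82 (-3.04 to 1.16) in Y cells. Cluster 10 held 93.4% of Control and 83.3% of Dach1OE type R cells. The type R cells of that cluster had 33.7 and 64.9 CPM of Flt4, from 22 and 33 UMIs, and a log2 ratio of 0.94 (0.12 to 1.79). All gated ECs of cluster 10 together had 173 and 100 CPM of Flt4, from 209 and 120 UMIs. Their ratio had the other sign, -0.79 (-1.125 to -0.458). That cluster also held 96.4% of Control and 100% of Dach1OE lymphatic ECs.

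The Pgf ratios within EC subtypes rested on few UMIs and moved with sex and cluster. In tip-like ECs (27 and 77 UMIs) the log2 ratio was 0.71 (0.06 to 1.40). By sex it was -0.84 (-1.87 to 0.19) in Xist cells, from 19 and 17 UMIs, and 2.71 (0.67 to 5.85) in Y cells, from 2 and 20 UMIs. Tip-like cells lay mainly in cluster 7 in Control (41.8%) and in cluster 11 in Dach1OE (49.0%). Tip-like cells of cluster 11 alone had a Pgf ratio of -1.02 (-1.75 to -0.24), from 22 UMIs of 19 Control cells and 58 UMIs of 128 Dach1OE cells. Metaphyseal ECs had 5.30 and 10.2 CPM of Pgf, from 25 and 64 UMIs, with a log2 ratio of 0.95 (0.26 to 1.68). Of the 25 Control UMIs, 13 came from 23 cells of cluster 11. Within that cluster metaphyseal Pgf was 197 and 17.4 CPM (-3.50 on the log2 scale, -4.41 to -2.48), and within cluster 7 the ratio was 0.95 (-0.60 to 2.53), from 8 and 9 UMIs.

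In arterial ECs, 3 of the 6 genes with enough UMIs passed the limit, 2 higher and 1 lower in Dach1OE, against 19.1% of 8471 genes. Vegfa had a log2 ratio of 2.62 (1.76 to 3.65) from 11 and 244 UMIs, Pgf 1.19 (0.24 to 2.30) from 10 and 82 UMIs, and Kdr -0.80 (-0.90 to -0.71) from 1463 and 3014 UMIs. Flt1 (0.23, 0.14 to 0.33), Vegfc and Flt4 (-0.35, -0.67 to -0.03) stayed within it. In cells thinned to 1000 UMIs, a Vegfa UMI was found in 1.70% of Control (0.555 to 3.92) and 6.65% of Dach1OE arterial ECs (5.17 to 8.40), and in 1.25% and 1.37% of erythroid cells. The unthinned shares were 3.63% and 18.8% in arterial ECs, at medians of 2857 and 2939 UMIs, and 7.54% and 8.49% in erythroid cells, at 6878 and 7873 UMIs. The arterial ratios were alike in cluster 22 taken alone, where Vegfa stood at 11.9 and 70.0 CPM and Kdr had a log2 ratio of -0.85.

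Part of the cells could be assigned to a sex by Xist and Y-linked UMIs. Xist cells held Xist and no Y-linked UMI, Y cells the reverse, and all other cells were left out. Of 8322 Control ECs, 2669 were Xist and 2083 Y cells, and of 8373 Dach1OE ECs 2608 and 1986. Arterial ECs had 101 and 53 of 303 in Control and 299 and 238 of 1004 in Dach1OE. Free RNA could misplace a cell, which was not tested. Since the methods give a pair of mice per library and the labels both sexes, each sex of a library is taken as 1 mouse. Vegfa in arterial ECs was 13.4 CPM in Xist cells and 10.6 CPM in Y cells of Control, and 82.2 and 57.9 CPM in those of Dach1OE. All Control arterial ECs together held 11 Vegfa UMIs, so the Control values by sex rest on very few UMIs. Kdr in arterial ECs was 1511 and 1488 CPM against 865 and 873 CPM. Flt4 over all ECs was 714 and 739 CPM against 482 and 499.5 CPM. In each case the values of the libraries did not overlap. These values are given without intervals, and for arterial Vegfa the low Control counts limit this.

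RNA of other cells in the arterial gate was gauged with the marker lists of the other classes, which also hold genes that ECs can express. All 16 chondrocyte markers had UMIs in arterial ECs, and their summed level was 0.874% of that in chondrocytes in Control and 1.19% in Dach1OE. That share of the chondrocyte Vegfa level would be 0.737 and 1.22 CPM. The stromal list (22 markers, 3 at 0 in Control and 1 in Dach1OE) stood at 2.64% and 2.79% of its own level, equal to 2.84 and 2.27 CPM of Vegfa, and the mural list (12 markers, 1 at 0 in each library) at 0.613% and 0.741%. The fibroblast list, which includes Ly6c1, a gene also expressed by arterial ECs, stood at 21.0% and 15.3% with 3 of 12 markers at 0, equal to 8.30 and 6.42 CPM of Vegfa. The haematopoietic list (25 markers, 9 at 0 in Control and 4 in Dach1OE) stood at 0.703% and 1.38%. The stromal list includes Cxcl12, which the study reports in type R ECs. Its summed level was higher in arterial (3828 and 4801 CPM) than in sinusoidal ECs (2231 and 2242 CPM). These shares therefore need not come from other cells. The part of RNA of other cells in the Vegfa value of 68.4 CPM was not tested. Among the Dach1OE arterial ECs, the 462 cells with a Dach1 UMI had 70.5 CPM of Vegfa and the 542 cells without one 65.9 CPM, a log2 ratio of 0.10 (-0.28 to 0.48). Kdr was 770 CPM in the cells with a Dach1 UMI and 930 CPM in those without. At 239 CPM of Dach1 and a median of 2939 UMIs per cell, a cell with the transcript can lack a Dach1 UMI. The split thus follows detection and depth too, and dependence of Vegfa or Kdr on Dach1 was not tested by it.

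In sinusoidal ECs, 1 of the 6 genes with enough UMIs passed the limit, against 8.88% of 11883 genes. It was Vegfa, with a log2 ratio of 0.62 (0.48 to 0.75) and with 62.2 and 57.8 CPM in Xist and Y cells of Control against 89.9 and 99.1 CPM in those of Dach1OE. It fell short of the limit in Xist cells (0.53), in cluster 0 alone (0.51), with clusters in place of gates (0.54) and with a mitochondrial limit of 10% (0.58). Kdr had a log2 ratio of 0.01 (-0.01 to 0.04), a narrow interval around no difference, and Flt1 0.26 (0.21 to 0.30). Since the sinusoidal cells of the libraries lay mostly in different clusters, the values were also taken in cluster 0 alone, which held 4278 Control and 704 Dach1OE sinusoidal cells. Vegfa was 60.9 CPM (Control) and 87.1 CPM (Dach1OE) there, and Flt4 was 906 CPM (891 to 921) and 1018 CPM (976 to 1061), so that the sign of the Flt4 ratio was opposite to that of the whole gate. The 1241 Dach1OE sinusoidal cells in cluster 25 had 104 CPM of Vegfa, 2334 CPM of Kdr and 745 CPM of Flt4. Cluster 25 held 13 Control and 3602 Dach1OE cells in all, and its leading genes against the other ECs were Scgb3a1, Madcam1, Clca3a1, Dach1 and Igfbp5.

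Metaphyseal ECs of Control lay to 83.4% in cluster 7, and those of Dach1OE to 41.0% in cluster 11 and 37.4% in cluster 7. Over all gated ECs of cluster 7 the log2 ratios were -0.04 for Flt1, -0.06 for Kdr, -0.04 for Flt4 and -0.00 for Vegfa, whereas Flt4 had a ratio of -0.79 in cluster 11, which was led by the cell division genes Ube2c and Prc1. Metaphyseal cells of cluster 7 had 517 CPM of Flt4 (Control) and 499 CPM (Dach1OE), and their log2 ratio was -0.05 (-0.16 to 0.06) in place of the -0.36 of the whole gate. Those of cluster 11 had 288 and 308 CPM, from 19 and 830 UMIs, with a log2 ratio of 0.10 (-0.55 to 0.84).

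**Figure D5:**
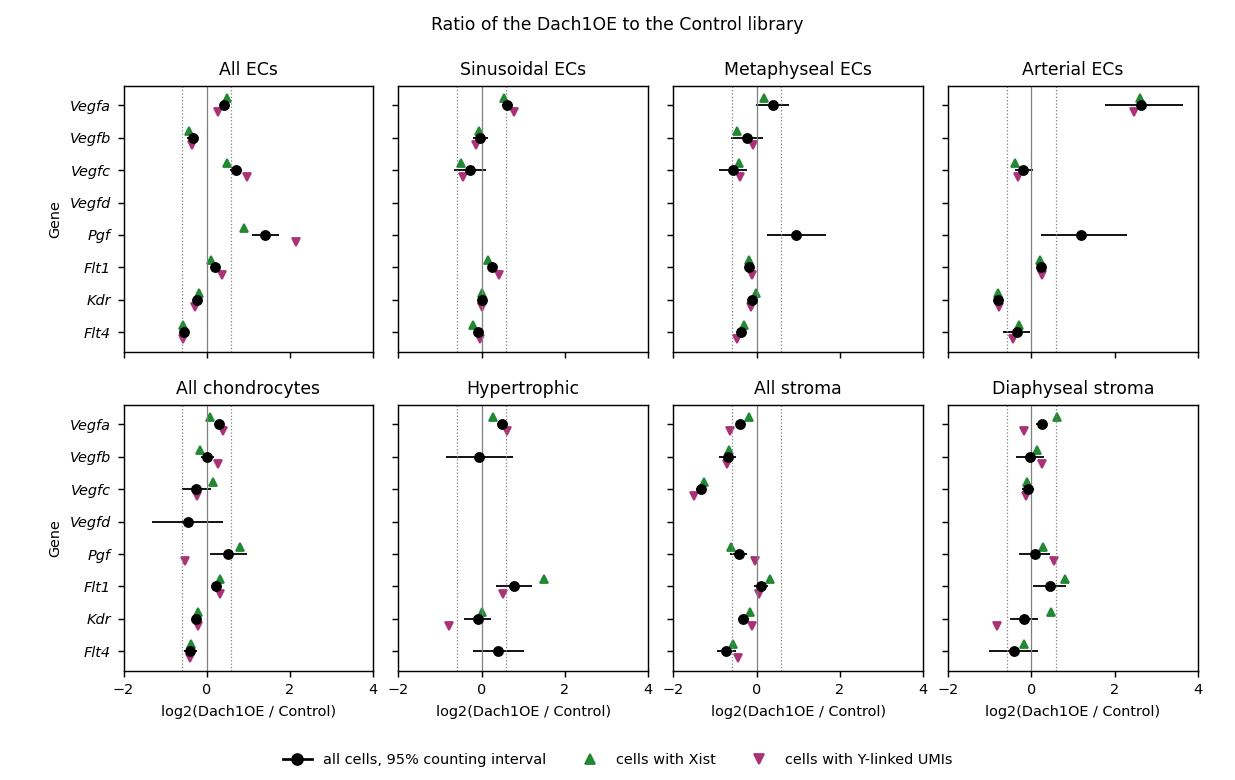
Log2 ratio of CPM, Dach1OE over Control (x axes), for the 8 genes (y axes) in 4 EC groups, chondrocytes and stroma. Black points are all cells with exact 95% counting intervals, triangles are cells with Xist or with Y-linked UMIs, dotted lines mark 1.5-fold, and genes with under 50 UMIs are left out. The arterial panel shows Vegfa at 2.62 and Kdr at -0.80, and Vegfc moves from -1.33 in all stroma to -0.08 in diaphyseal stroma.

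In chondrocytes, none of the 8 genes passed the limit, against 6.66% of 14918 genes. Vegfa went from 84.4 CPM (81.7 to 87.1) to 103 CPM (100.3 to 105.5), a log2 ratio of 0.29 (0.23 to 0.35). By sex the Vegfa ratio was 0.075 in Xist cells and 0.38 in Y cells. The sexes were mixed unlike in the libraries, with 1989 Xist and 1162 Y chondrocytes in Control and 2019 and 2111 in Dach1OE. Within hypertrophic cells, which were 7.80% of Control and 10.2% of Dach1OE chondrocytes, the ratio was 0.50 (0.37 to 0.63). It was 0.15 (0.05 to 0.24) in columnar and 0.06 (-0.04 to 0.16) in prehypertrophic cells. By sex, hypertrophic Vegfa was 221 and 230 CPM in Xist and Y cells of Control and 268 and 353 CPM in those of Dach1OE. The spread between the sexes of Dach1OE was thus larger than the gap between the libraries in Xist cells. The median log2 ratio of the 8 genes was -0.12, against -0.01 for all genes.

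In stroma, 3 of the 7 genes with enough UMIs passed the limit, all lower in Dach1OE, against 15.3% of 13476 genes. Vegfc went from 82.2 to 32.6 CPM (-1.33 on the log2 scale, -1.45 to -1.21), Vegfb from 20.6 to 12.7 CPM (-0.69, -0.91 to -0.49) and Flt4 from 17.6 to 10.7 CPM (-0.72, -0.95 to -0.50). The Flt4 level of stroma was not read as expression, so this ratio is a value only. Flt4 was lower in Dach1OE in ECs (-0.54), haematopoietic cells (-0.55), mural cells (-0.47) and chondrocytes (-0.39) too, and in fibroblasts the ratio was -0.21 (-0.63 to 0.20). Vegfa was also lower, at 107 and 81.4 CPM (-0.40, -0.49 to -0.32). Most genes moved this way in stroma, since 1856 of the 2065 genes past the limit were lower in Dach1OE and the median log2 ratio of all genes was -0.22, beside -0.43 for the 7 genes. Scaling by trimmed means (TMM) shifted stromal ratios by 0.22, and 1 gene of the 7 then passed the limit.

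Within diaphyseal stroma, the ligand ratios were small. Vegfc had a log2 ratio of -0.08 (-0.22 to 0.06), Vegfb -0.03 (-0.36 to 0.29), Pgf 0.09 (-0.30 to 0.46) and Vegfa 0.25 (0.11 to 0.39). The Vegfa values by sex were 206 and 274 CPM in Xist and Y cells of Control and 316 and 241 CPM in those of Dach1OE, so the libraries overlapped. For Vegfc they were 288 and 242 CPM against 267 and 222 CPM. Metaphyseal stroma had log2 ratios of 0.07 (-0.18 to 0.32) for Vegfa and -0.31 (-0.67 to 0.04) for Vegfc. In osteoblasts Vegfc passed the limit, at -0.92 (-1.42 to -0.43), from 84 and 63 UMIs and low levels of 6.96 and 3.68 CPM. Vegfc was also lower in haematopoietic cells (-1.16, -1.47 to -0.85), erythroid cells among them (-0.97). It was -0.255 (-0.605 to 0.096) in chondrocytes, -0.355 (-0.945 to 0.248) in mural cells and 0.462 (0.002 to 0.924) in fibroblasts. Whether the osteoblast value is particular to osteoblasts was not tested. Septoclasts had -0.48 (-0.98 to 0.02) for Vegfc. With every stromal subtype given equal weight, none of the genes passed the limit, and Vegfa and Vegfb had log2 ratios of 0.16 and 0.049. Diaphyseal stroma, the subtype with the highest Vegfc level, held 45.2% of all Vegfc UMIs in Control and 20.9% in Dach1OE.

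In mural cells, Pgf was 54.9 CPM (47.6 to 63.0) in Control and 70.3 CPM (64.2 to 76.9) in Dach1OE and Vegfa 65.4 and 78.3 CPM, with log2 ratios of 0.36 (0.12 to 0.60) and 0.26 (0.04 to 0.48). Within pericytes and within smooth muscle cells the Pgf intervals of the libraries met.

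Other genes of VEGF signalling were taken from a list of 76, all of which had enough UMIs in ECs, chondrocytes and stroma. In ECs, 6 were at least 1.5-fold higher in Dach1OE and 3 were lower, or 11.8% of the list against 14.6% of all genes, and the median log2 ratio was -0.02. The share was thus no larger than in all genes, and the genes that follow are named as values only. The higher ones were Egln3 (7.95 and 26.9 CPM), an oxygen-dependent regulator of the transcription factors that drive Vegfa, the chemokine receptor Cxcr4 (16.1 and 38.0 CPM), the early response genes Nr4a1 (29.9 and 58.9 CPM) and Nr4a2 (9.51 and 15.4 CPM), the endothelial nitric oxide synthase Nos3 (80.6 and 142 CPM) and the sprouting ligand Apln (92.3 and 149 CPM). The lower ones were Cd63 (270.3 and 169.6 CPM), Esm1 (19.1 and 10.4 CPM) and Ccbe1 (2.60 and 1.35 CPM), which aids the processing of Vegfc. Of the 39 signal relay genes, Nos3 was the only one past the limit in ECs. Of the 15 genes listed as responses, 5 passed it in ECs (33.3%), and the other parts of the list lay between 0% and 16.7%. The share of the response genes was 26.7% in chondrocytes and 40.0% in stroma. Differences between the parts were not tested. Cxcr4, Apln and Esm1 were also gate markers of tip-like ECs, which were 153 Control and 261 Dach1OE cells. In chondrocytes 1 of the 76 genes was higher and 4 were lower, and in stroma 4 were higher and 10 lower, with medians of 0.01 and -0.18. These were 6.58% of the list against 6.66% of all genes in chondrocytes, and 18.4% against 15.3% in stroma. The lower stromal genes included Nrp1 (log2 ratio -1.13), Epas1 (-1.25), Ccbe1 (-1.19) and Esm1 (-1.56), the last of which is a gate marker of diaphyseal stroma.

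The neuropilins, co-receptors that bind VEGF ligands beside Kdr and Flt4, differed little over all ECs. Nrp1 was 386 and 404 CPM and Nrp2 402 and 368 CPM. In arterial ECs, Nrp1 was 643 CPM (Control) and 385 CPM (Dach1OE), from 638 and 1374 UMIs, and Nrp2 94.8 and 60.0 CPM, from 94 and 214 UMIs. Like Flt4, Nrp2 was much lower in arterial than in sinusoidal ECs, where it stood at 406 and 436 CPM.

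The genes whose levels were most like each member were found by Pearson correlation of log2(CPM + 1) over 22 subtypes in both libraries (44 points that share the 2 libraries), among 14970 genes. For the receptors the coefficients were high, since the EC subtypes stood apart from all others. Flt1 was most like Zfp366 and Sox18 (0.986 each) and Rasip1 (0.985), Kdr was most like Sox18 (0.992), Cd38 (0.991) and Ushbp1 (0.986), and Flt4 was most like Fam167b (0.980), Ltc4s (0.957) and Kdr (0.954). For the ligands they were lower. Vegfc was nearest to Fat4 (0.90), Ttc12 (0.88) and Thsd7a (0.88), and Pgf to Olfml2a (0.83), Msx1 (0.82) and Cald1 (0.79). Vegfb was nearest to Smc6 (0.89), Nup133 (0.89) and Mcm4 (0.87), the last a gene of DNA replication, Vegfa to Gpld1 (0.82), Efemp2 (0.82) and Obsl1 (0.81), and Vegfd to B3galnt1 (0.72), Tnxb and Cpeb1 (0.71 each). No other member was among the 3 nearest genes of a ligand.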

How the data were processed

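The members and the marker and pathway lists were chosen with earlier results of these data known, and the scoring of the gates was settled after the data were seen. The deposited tables list counts per cell and gene, which the authors made with the BD Rhapsody WTA pipeline, version 1.11 per the file headers (the methods give another version), with GRCm38, GENCODE vM19 and intronic reads included. The use of strand is not given in the sources used here. UMIs corrected by recursive substitution (RSEC) were the measure. There were 211875233 reads over kept Control cells and 235637043 over kept Dach1OE cells, or 1.51 and 1.45 per UMI.

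Cells with 500 to 6000 genes and under 25% mitochondrial UMIs were kept. A cell joined a class where the mean z-score of its markers was at least 0.3 and led by 0.3, and a subtype by its largest relative marker score where that was at least 0.5 on 2 or more markers (proliferating: 3 markers, taken first). These cells are not an annotation by the authors. The checks against Leiden clusters (scanpy 1.11.5, resolution 0.8, 30 components, 2000 variable genes, the 8 members left out) placed 88.1% to 98.4% of the gated cells of a class in a cluster of that class. Scrublet, run in scanpy, marked 6.53% and 6.60% of cells, and these cells stayed in. UMIs were summed per library and group and divided by the group total, with exact Poisson intervals. Ratios have exact conditional binomial intervals. With 1 library per group no test was run. The ratio step was tested on simulated counts. All 8 members were named, the 3 nearest genes came from the correlation above, and other pathway genes came from the list of 76. Alternatives were cluster-based groups, raw UMIs, other cell filters, TMM scaling (edgeR 4.0.16), equal weights of subtypes, removal of marked doublets and cells of either sex. Values within single clusters and the alternatives for subtypes were added after seeing the data. Coordinates come from GENCODE vM21 on GRCm38 and are 1-based.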

Additional observations from a re-analysis of the deposited data

Results flagged for a closer look

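Flt4 had ratios of opposite sign in EC subtypes, with log2 ratios of 0.75 in type R ECs and -0.76 in proliferating ECs (Dach1OE over Control), and the difference was not tested. The type R value rested on 31 and 44 UMIs and was 1.06 in Xist cells and -0.82 in Y cells, with intervals that included 0. In type R cells of cluster 10 alone it was 0.94 (0.12 to 1.79), and in proliferating cells of cluster 11 alone -0.95 (-1.11 to -0.78). All gated ECs of cluster 10 together, lymphatic ECs included, had a Flt4 ratio of the other sign, -0.79 (-1.125 to -0.458). The type R levels (44.2 and 74.1 CPM) lay near those of megakaryocytes (71.2 and 50.7 CPM) and smooth muscle cells (57.0 and 34.2 CPM). Receptor levels of those cells were not read as expression. Erythroid cells had lower Flt4 levels, at 26.5 and 17.0 CPM. By sex, Flt1 in proliferating ECs had log2 ratios of -0.29 in Xist cells and 0.25 in Y cells. Vegfa in prehypertrophic chondrocytes had -0.19 in Xist cells and 0.19 in Y cells. In the cases of Flt1 and Vegfa the intervals left out 0 on opposite sides, each sex stands for 1 mouse per library, and the differences were not tested.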

How the results depend on the processing

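No paired analysis was possible because each group has 1 library, so no replicate could be left out either. With equal weights of subtypes, Vegfc over ECs turned to -0.16 and Vegfb over stroma to 0.049 (log2, Dach1OE over Control), Flt1, Kdr and Flt4 over ECs were 0.035, -0.094 and -0.33, Vegfa was 0.36 in chondrocytes and 0.16 in stroma, and 1 member passed 1.5-fold in chondrocytes and 0 in stroma. Y cells alone gave 0.36 for Flt1 and -0.27 for Kdr over ECs, 0.38 for Vegfa in chondrocytes and -0.63 in stroma. Xist cells alone gave 0.10, -0.18, 0.075 and -0.18 for these, 1 member past the limit in ECs (Pgf, with Vegfc lost) and 1 in chondrocytes, and 3.04 for Flt4 in sinusoidal over arterial ECs of Dach1OE. Clusters in place of gates gave -0.25 for Kdr over ECs and 3.46 for that Flt4 ratio, and 0.19 for Flt4 in sinusoidal ECs between libraries. A mitochondrial limit of 10% gave 0.22 for Vegfa in chondrocytes, and TMM scaling -0.18 for Vegfa in stroma and 1 member past the limit. The share of all genes past 1.5-fold was 22.8% in ECs, 16.4% in chondrocytes and 23.2% in stroma for genes with at least 10 UMIs, and 2.70% in chondrocytes for genes with at least 200. Vegfa in arterial ECs ranged from 1.91 to 2.86 and Kdr from -0.83 to -0.67 over 8 settings. Of the main results, 79 values under an alternative stayed within their counting interval (counts and shares within 1.5 times) and 27 did not. The causes were not tested. Low counts limit Vegfd everywhere, Pgf and Vegfb in small EC groups and Vegfa in Control arterial ECs.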
